A study of Homo sapiens with 6 samples.

Results

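The 9 genes described here, TRIB3, PPP1R15A, NUPR1, GDF15, FGF21, STC2, ADM2, VLDLR and KLHL24, are stress outputs of the transcription factor ATF4. They were taken by name, and make up 9 of 19974 protein-coding genes of the annotation. Open chromatin around them was measured as the listed ATAC-seq peaks within 50 kb of each gene body on hg38, merged over libraries, which gave 127 of 216029 regions. ATAC-seq maps accessible DNA by the insertion of sequencing adapters with the Tn5 transposase. It measures no RNA, so nothing below is a measure of expression.

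The cells were KMS-11, an established human line from multiple myeloma, a cancer of antibody-secreting plasma cells. The knockdown group held 3 libraries labelled LentiV2_ATF4g3, a lentiviral vector with 1 guide against ATF4, and the control group held 3 libraries labelled LentiV2, the vector alone. The genotype of all 6 libraries was labelled WT, and each was titled as a biological replicate. How the guide acts, how long after transduction the cells were taken and whether a library came from a separate culture are not given in the labels, and where replicates were not separate cultures the p-values measure only the spread between these samples.

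ATF4 is the main transcription factor of the integrated stress response. In that response, stress kinases phosphorylate the initiation factor eIF2, general protein synthesis slows, and ATF4 mRNA is translated more. ATF4 pairs with other bZIP proteins and binds C/EBP-ATF composite sites near genes of amino acid supply, of feedback on the response and of secreted stress signals. Plasma cells and myeloma cells, which secrete large amounts of antibody, are known for a high load on the endoplasmic reticulum.

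Each library had its own list of 220250 to 238246 summits. The lists of the knockdown libraries covered 63.6, 63.0 and 63.9 Mb, against 70.7, 70.3 and 67.0 Mb in the control libraries. The library-wide background was a pileup of 2.51, 2.15 and 2.51 overlapping tags in the knockdown libraries and 3.19, 2.79 and 3.52 in the control libraries, so depth was lower in every knockdown library. Mean summit pileup in the knockdown was typically 0.524 times that of the control (median over the 68049 regions that every library listed), or 0.688 times after division by the background. The part of depth in the differences below was not tested beyond the scaling and ranking described. Cell type markers were scored by a listed peak with −log10 q of at least 2 within 1 kb of an annotated start. Where no start was given, either end of the gene was used. Of 10 plasma cell markers, 9 had such a peak in all 6 libraries, and CD27 had none. The same held for 2 of 5 B cell, 2 of 5 T and NK cell, 0 of 5 myeloid and 5 of 5 epithelial and stromal markers. At ATF4 itself the region over the start had pileups of 189, 197 and 278 in knockdown libraries and 399, 417 and 409 in control libraries, with a rank difference of -0.18 (limma adjusted p = 0.374), a reading of chromatin that does not check the knockdown of its product.

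Because pileup, fold and −log10 q all move with depth, regions were compared by rank. In each library the 68049 shared regions were ranked by the −log10 p of their highest summit, the ranks were turned into normal scores, and the group difference, knockdown minus control, was tested with limma and Benjamini-Hochberg adjustment over all of them. A fall in rank is thus a fall relative to the other regions of the same library. A bulk library cannot tell fewer cells with an open site from a site less open in each cell.

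Of the 64 regions near the 9 genes that were listed in all 6 libraries, 4 fell in rank in the knockdown and 3 rose. That is 6.25% lower, against a background of 4.24% of all regions called lower, and 4.69% higher, against 3.93%. In either direction the share was 10.9%, against 8.18%, so the windows as a whole stood close to the background. The ranks of the 2 groups did not overlap at 8 regions lower in the knockdown, or 12.5%, against 13.4% of all regions, and at 6 higher, or 9.38%, against 13.8%. The median rank difference of the 64 regions was -0.02, and that of all regions was 0 to 2 decimals. Log2 of pileup over background and log2 fold were also tested in place of rank, here and below. Both were first centred on the library median over the 68049 regions, so higher or lower on them is relative to that median. With log2 of pileup over background 6 of the 64 regions were lower and 7 higher, against 3813 lower and 8032 higher of all 68049. With log2 fold 2 were lower and 7 higher, against 2420 lower and 6866 higher of all 68049. The 4 regions that fell lay upstream of TRIB3, KLHL24 and FGF21, and that near FGF21 also lay over an annotated start of another gene, FUT1. The 3 that rose lay over starts of other genes in the windows of NUPR1 and ADM2. The plot of rank differences by gene marks these 7 regions in red, and 3 of them, near FGF21, NUPR1 and ADM2, lie inside the band that holds most regions.

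**Figure D1:**
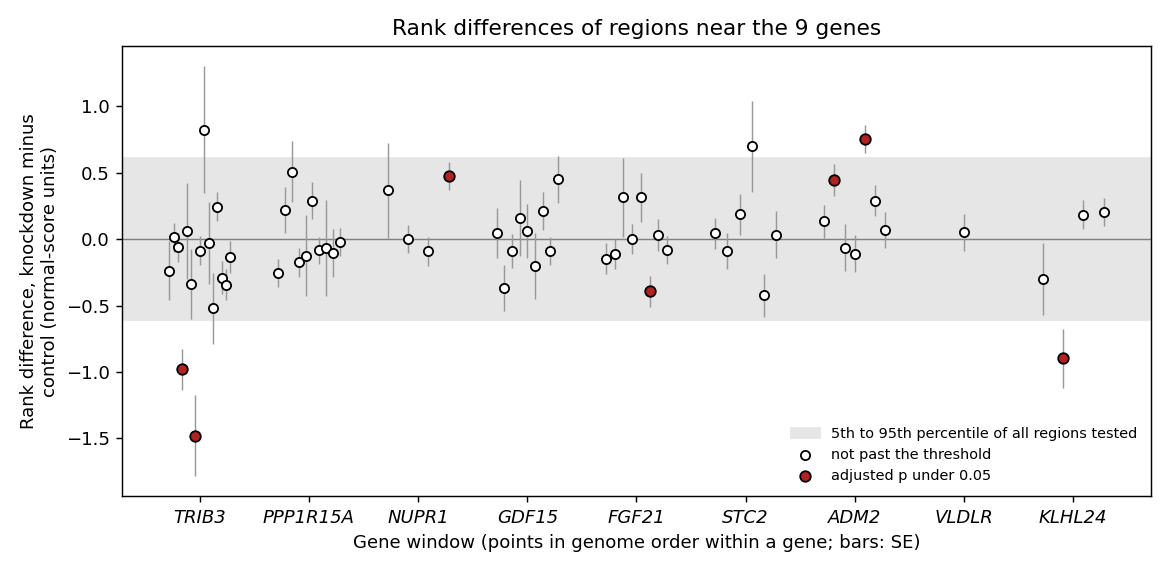
Rank difference, knockdown minus control, in normal-score units (vertical axis) of each of the 64 regions listed in all 6 libraries, by gene window (horizontal axis), with SE bars; red points have an adjusted p under 0.05 and the grey band holds the 5th to 95th percentile of all 68049 regions. The 2 lowest points, at -1.48 and -0.98, are both in the TRIB3 window.

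Sequences before the annotated starts were read from RefSeq (GRCh38.p14) for 8 of the 9 genes. They were searched on both strands for the C/EBP-ATF letters TGATGNAA, the cAMP response element TGACGTCA and the AP-1 letters TGANTCA. The 250 bases before the start held TGATGNAA in FGF21, TGACGTCA in PPP1R15A and TGANTCA in KLHL24, 1 gene of 8 for each, and no 2 matches overlapped. For TRIB3 the sequences searched, between chr20:381045 and 381342, lay before later annotated starts. They are inside the gene span from 380760 that sets its distances below, and the bases before 380760 were not searched. Over 15812 protein-coding genes with a sequence the shares were 3.16%, 2.73% and 7.09%. The 3 with a match are shown, with the match in capitals, and so is STC2, whose start region had the lowest pileup ratio of the start regions listed in all 6 libraries and which held none of these letters. FGF21 (chr19:48755359-48755523, plus strand, hg38) is given from the annotated edge of the neighbouring gene FUT1, and the others as the 250 bases before the start, PPP1R15A at chr19:48872171-48872420 on the plus strand, KLHL24 at chr3:183635373-183635622 on the plus strand and STC2 at chr5:173328415-173328664 on the minus strand.
FGF21: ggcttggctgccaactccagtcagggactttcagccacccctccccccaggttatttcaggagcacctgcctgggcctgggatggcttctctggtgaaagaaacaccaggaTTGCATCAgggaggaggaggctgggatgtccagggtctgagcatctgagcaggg
PPP1R15A: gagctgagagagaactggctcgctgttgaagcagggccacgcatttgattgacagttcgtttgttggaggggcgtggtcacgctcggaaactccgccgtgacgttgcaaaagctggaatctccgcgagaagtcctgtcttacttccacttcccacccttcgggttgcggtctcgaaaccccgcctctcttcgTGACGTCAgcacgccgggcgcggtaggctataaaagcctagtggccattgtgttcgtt
KLHL24: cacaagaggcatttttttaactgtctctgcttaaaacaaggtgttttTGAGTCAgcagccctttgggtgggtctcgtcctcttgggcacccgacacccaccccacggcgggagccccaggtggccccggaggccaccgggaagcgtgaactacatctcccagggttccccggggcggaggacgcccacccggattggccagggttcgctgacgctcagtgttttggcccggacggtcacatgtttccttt
STC2: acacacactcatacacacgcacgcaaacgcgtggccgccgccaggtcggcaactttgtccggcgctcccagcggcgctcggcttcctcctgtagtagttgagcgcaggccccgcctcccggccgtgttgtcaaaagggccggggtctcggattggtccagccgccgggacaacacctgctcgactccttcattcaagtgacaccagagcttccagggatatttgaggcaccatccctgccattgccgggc
The FGF21 match, TTGCATCA on this strand, lies 54 to 47 bases before the start, the PPP1R15A match 58 to 51 bases and the KLHL24 match 203 to 197 bases. On the other strand the FGF21 match reads TGATGCAA and also lies 119 to 112 bases before an annotated start of FUT1. A match is a description of letters and not of binding.

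TRIB3 (chr20:380760-397559) encodes a pseudokinase that binds AKT and feeds back on ATF4 and its partner CHOP. Its window held 18 regions, 15 of them listed in all 6 libraries, and 2 of these fell. The first lay 17.7 kb upstream of the start, between genes, at chr20:362264-363062. Its summit pileups were 37, 24 and 31 in the knockdown libraries, against 160, 181 and 153 in the control libraries. All 3 knockdown values were far below every control value, and the groups did not overlap. The fold over local background was 7.97, 5.01 and 5.95 in knockdown libraries, against 13.6, 14.7 and 11.5 in control libraries, and −log10 q was 21.9, 9.53 and 14.4 in knockdown libraries, against 122, 143 and 105 in control libraries. The region stood at the 57.3, 32.2 and 37.6 percentile of the knockdown libraries and the 79.1, 80.3 and 75.4 percentile of the control libraries. The rank difference was -0.98 ± 0.15 (SE; limma adjusted p = 0.000261), with an adjusted p of 0.0565 on log2 fold and of 8.03e-08 to 0.0565 over its 10 alternatives. Its pileup ratio of 0.186 was at or above that of only 0.147% of the 68049 regions.

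The second TRIB3 region lay 8.27 kb upstream at chr20:371482-372489, also between genes. Its pileup was 10 in each knockdown library, against 46, 53 and 55 in the control libraries. The −log10 q was 1.61, 2.76 and 2.06 in the knockdown libraries, against 23.9, 37.8 and 32.8 in the control libraries. It was thus near the limit of listing in the knockdown and well above it in the controls. The rank difference was -1.48 ± 0.30 (SE; limma adjusted p = 0.00293). The width fell as well: listed peaks covered 238, 182 and 150 bp of it in knockdown libraries, against 1008, 594 and 931 bp in control libraries. On the centred log2 scale this was -1.82 (limma adjusted p = 0.0387), and the call was lost without any single library other than knockdown replicate 3, with adjusted p of 0.0661 to 0.151.

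The region over the TRIB3 start, chr20:380511-382470, did not pass the rank test. It had pileups of 125, 117 and 132 in knockdown libraries and 264, 265 and 318 in control libraries. The groups were apart in pileup, yet the percentiles of 84.6, 82.2 and 81.2 in knockdown libraries overlapped the 83.2, 82.1 and 88.7 of control libraries (rank difference -0.09, limma adjusted p = 0.684). The strongest region of the window by median −log10 q lay 38.6 kb downstream in RBCK1 at chr20:419387-421179, with pileups of 124, 162 and 223 in knockdown libraries, against 373, 414 and 409 in control libraries. It did not pass by rank (-0.29, limma adjusted p = 0.154). Its width was called relatively wider in the knockdown (0.26, limma adjusted p = 0.0407), a direction that turned to -0.06 without centring on the library median, and the call was lost without any single library other than knockdown replicate 3. Rank means were lower in the knockdown at 11 of the 15 TRIB3 regions, the highest share of the 9 windows. PPP1R15A had 7 of 10, GDF15 4 of 9, STC2 2 of 6, ADM2 2 of 7 and VLDLR 0 of 1. In NUPR1 it was 2 of 4, in FGF21 4 of 8 and in KLHL24 2 of 4. All 9 windows together had 34 of 64, against 34032 of all 68049 regions. The TRIB3 count was not tested.

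**Figure D2:**
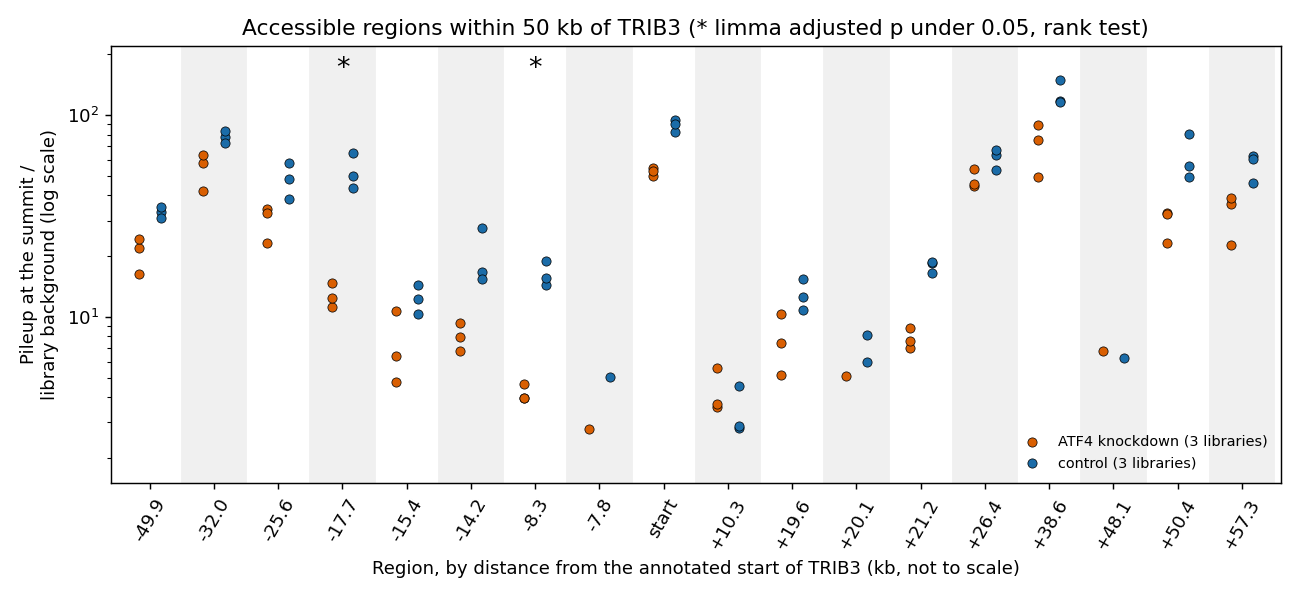
Summit pileup divided by library background (vertical axis, log scale) for the 18 regions of the TRIB3 window, ordered by distance from the start in kb (horizontal axis, not to scale); orange points are the 3 knockdown libraries, blue points the 3 control libraries, and a missing point means no listed peak. The starred regions, 17.7 and 8.27 kb upstream, have knockdown values of 11.2 to 14.7 and 3.98 to 4.65, below all control values there.

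PPP1R15A (chr19:48872421-48876058), also called GADD34, is the stress-induced partner of protein phosphatase PP1 that removes the phosphate from eIF2 and so ends the response. None of its 10 regions listed in all 6 libraries passed the rank test. The region over the start and over the TGACGTCA letters, chr19:48872111-48873471, had pileups of 108, 105 and 130 in knockdown libraries, against 152, 215 and 227 in control libraries. Its percentiles were 71.1, 68.4 and 70.1 in knockdown libraries and 47.2, 63.5 and 66.2 in control libraries. The knockdown percentiles were all above the control ones, with a rank difference of 0.29 ± 0.14 (SE; limma adjusted p = 0.216). The highest −log10 q of the window was that of a region 35.9 kb upstream in HSD17B14, with a rank difference of -0.26 (limma adjusted p = 0.141). A region 2.24 kb into the gene, chr19:48874659-48876022, was called wider in the knockdown after centring (0.30, limma adjusted p = 0.0411), and without centring the value was -0.02. That call too was lost without any single library other than knockdown replicate 3.

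NUPR1 (chr16:28532708-28538974) encodes a small nuclear protein induced by many stresses. No region lay over its body or at either end in more than 1 library: the nearest, 0.41 kb from an end, was found in knockdown replicate 2 with a pileup of 9. Weak summits inside the gene body were listed in knockdown replicates 1 and 2 and control replicate 3, with highest pileups of 9, 8 and 10. The region that rose lay 14.8 kb away over the start of SGF29, a subunit of histone acetyltransferase complexes, at chr16:28553753-28554729. Its pileups were 110, 120 and 124 in knockdown libraries and 134, 143 and 148 in control libraries. Both sets were close, with a ratio of 0.833 against the median of 0.524, and the percentiles of 87.7, 89.8 and 87.3 in knockdown libraries exceeded the 74.8, 75.7 and 78.3 in control libraries. The rank difference was 0.47 ± 0.10 (SE; limma adjusted p = 0.00473). The region of highest −log10 q in this window, 40.2 kb away in CLN3, had a rank difference of 0 to 2 decimals (limma adjusted p = 0.997).

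The secreted outputs are GDF15, FGF21, STC2 and ADM2. GDF15 (chr19:18386158-18389176), a distant member of the TGF-beta family that acts through the receptor GFRAL in the brainstem, had 9 regions listed in all 6 libraries and no call. At its start a weak peak was listed in control replicates 1 and 3, with pileups of 21 and 24, and in no knockdown library. A region inside the gene, chr19:18388214-18389007, had pileups of 47, 81 and 82 in knockdown libraries, against 139, 152 and 146 in control libraries (rank difference -0.09, limma adjusted p = 0.727). The region 11.3 kb upstream had pileups of 21, 38 and 62 in knockdown libraries, against 102, 119 and 102 in control libraries, and knockdown percentiles that spread from 36.7 to 72.5 (rank difference -0.37, limma adjusted p = 0.207). The region of highest −log10 q, 42.4 kb downstream in SSBP4, had a rank difference of -0.09 (limma adjusted p = 0.669).

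FGF21 (chr19:48755524-48758330) encodes a hormone of fasting and metabolic stress that signals through FGFR1 with KLB. No listed peak overlapped its gene body, or the 250 bases before its start with the TTGCATCA letters shown above, in any of the 6 libraries. The nearest shared region, 1.93 kb upstream, fell in rank. It lay in FUT1, a fucosyltransferase gene read from the opposite strand, and over an annotated start of that gene. This region, chr19:48752407-48753591, had pileups of 59, 74 and 78 in knockdown libraries, against 212, 184 and 226 in control libraries. Percentiles were 66.3, 74.1 and 70.6 in knockdown libraries and 84.5, 76.5 and 85.2 in control libraries, with no overlap but with control replicate 2 close to knockdown replicate 2. The rank difference was -0.39 ± 0.12 (SE; limma adjusted p = 0.0374), and the call was lost on log2 fold (-0.07, adjusted p = 0.781) and without knockdown replicate 1 or 3 or control replicate 1 or 3 (adjusted p of 0.0622 to 0.188). Over its 10 alternatives the adjusted p ran from 0.00789 to 0.781. The window's region of highest −log10 q, 40.8 kb upstream in MAMSTR, had a rank difference of -0.15 (limma adjusted p = 0.475).

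STC2 (chr5:173314723-173328414) encodes stanniocalcin-2, a secreted glycoprotein that inhibits the protease PAPP-A. The region over its start, chr5:173327735-173329939, had pileups of 35, 47 and 40 in knockdown libraries, against 150, 156 and 119 in control libraries. The highest knockdown pileup was well under the lowest control pileup, and the ratio of means was 0.287. By rank the groups overlapped, with percentiles of 43.2, 57.7 and 39.3 in knockdown libraries and 68.0, 66.8 and 54.7 in control libraries. The rank difference of -0.42 ± 0.16 (SE) did not pass (limma adjusted p = 0.109). It passed on centred log2 of pileup over background (-0.76, adjusted p = 0.00149) and without knockdown replicate 2 (adjusted p = 0.0437). Centred log2 fold gave 0.05 (adjusted p = 0.879), the highest of the 10 alternatives. Local background there was 4.21 times the library rate. The region of highest −log10 q, 44.1 kb downstream, had pileups of 84, 80 and 133 in knockdown libraries, against 205, 172 and 165 in control libraries (rank difference 0.04, limma adjusted p = 0.869).

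ADM2 (chr22:50481543-50486437) encodes a peptide of the calcitonin family, also called intermedin, that acts on CALCRL with RAMP proteins. The region over its start, chr22:50481272-50482655, had pileups of 30, 43 and 50 in knockdown libraries, against 94, 81 and 102 in control libraries, and its percentiles overlapped (rank difference -0.06, limma adjusted p = 0.874). The 2 regions that rose lay elsewhere. The one 25.5 kb downstream, over LMF2 and NCAPH2 at chr22:50507020-50508741, had pileups of 213, 201 and 218 in knockdown libraries and 195, 186 and 235 in control libraries. It was thus as high in the knockdown as in the controls without any scaling, with a ratio of 1.03, and its rank rose by 0.75 ± 0.11 (SE; limma adjusted p = 7.47e-05). The one 6.08 kb upstream, over the start of SBF1 at chr22:50474742-50475458, had pileups of 102, 108 and 144 in knockdown libraries and 170, 154 and 186 in control libraries. Its rank rose by 0.44 ± 0.12 (SE; limma adjusted p = 0.0218), a call lost without knockdown replicate 3 or control replicate 1 or 2 (adjusted p of 0.0597 to 0.129, and 0.00671 to 0.129 over its 10 alternatives). The region of highest −log10 q, 10.7 kb upstream in SBF1, had a rank difference of 0.13 (limma adjusted p = 0.562).

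VLDLR (chr9:2621787-2660056), a lipoprotein receptor that also binds reelin, had the barest window, with 2 regions. The one over its start, chr9:2621553-2622921, had pileups of 42, 53 and 60 in knockdown libraries, against 112, 97 and 104 in control libraries. Its percentiles overlapped, and the rank difference was 0.05 ± 0.14 (SE; limma adjusted p = 0.872).

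KLHL24 (chr3:183635623-183684519) encodes a Kelch-like substrate adaptor of the CUL3 ubiquitin ligase. A region 21.1 kb upstream, between genes at chr3:183613697-183614479, fell in rank. Its pileups were 17, 16 and 15 in knockdown libraries, against 60, 69 and 75 in control libraries. The knockdown values were nearly the same and far under the controls, as were −log10 q of 7.10, 7.09 and 4.90 in knockdown libraries, against 40.8, 57.2 and 54.4 in control libraries. The rank difference was -0.90 ± 0.22 (SE; limma adjusted p = 0.0110), and it did not pass without control replicate 2 (adjusted p = 0.0738) or 3 (adjusted p = 0.0898), with 0.00177 to 0.0898 over its 10 alternatives. The region over the start and the AP-1 letters, chr3:183635254-183637138, was the strongest of the window, with pileups of 280, 283 and 277 in knockdown libraries, against 479, 473 and 461 in control libraries. It stood at the 97.6, 98.0 and 95.9 percentile of knockdown libraries and the 96.5, 95.7 and 95.5 percentile of control libraries. Its rank difference was 0.18 ± 0.11 (SE; limma adjusted p = 0.329). Relative to the library median it passed as higher on log2 fold (0.53, adjusted p = 0.0248) and on log2 of pileup over background (0.29, adjusted p = 0.0304). Over its 10 alternatives the adjusted p ran from 0.0248 to 0.612. Before that centring its pileups were lower in every knockdown library, as given above.

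**Figure D3:**
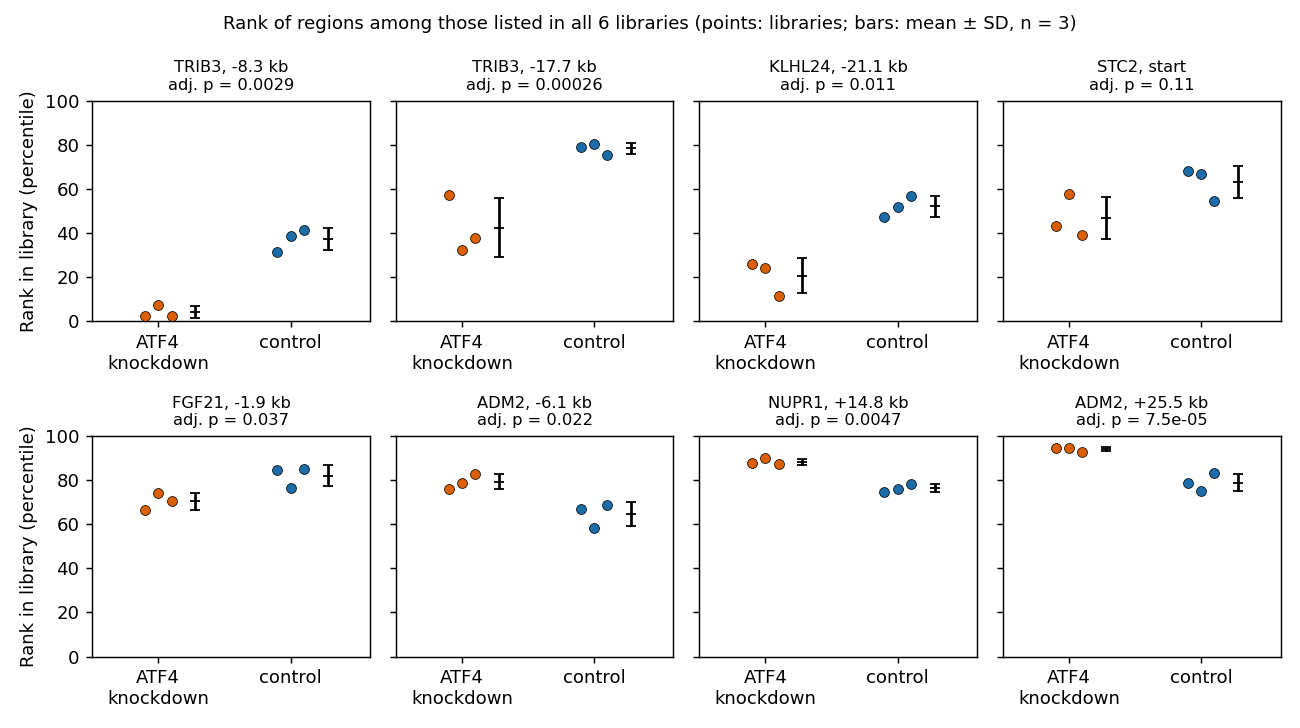
Percentile of each region among the 68049 regions ranked within its library (vertical axis) in the 3 knockdown libraries (orange, left) and the 3 control libraries (blue, right), for the 7 regions past the threshold and the STC2 start; bars give mean ± SD (n = 3 each). At the TRIB3 region 8.27 kb upstream the means were 3.97 and 37.1, and at the ADM2 region 25.5 kb downstream 94.0 and 78.9.

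Presence in a whole group and absence from the other was rare. Of the 127 regions, 3 were found in all 3 control libraries and listed in no knockdown library, or 2.36%, against 1.5% of all regions. None of the 127 had the opposite pattern, against 0.102% of all regions. These counts carry no test, since 3 libraries against 3 cannot give an exact p under 0.1. The region 15.4 kb upstream of KLHL24, chr3:183619677-183620179, had control pileups of 14, 19 and 16 at a local background of 1.06 times the library rate. The other 2, near ADM2 inside SBF1 (chr22:50473292-50473510) and TYMP (chr22:50526933-50527170), had control pileups of 123, 112 and 116 and of 147, 136 and 150. There the local background was 11.7 and 19.8 times the library rate, and the fold was 2.76 to 3.40 and 2.13 to 2.42. Of the 127 regions, 60 were found in all 6 libraries, or 47.2%, against 28.7% of all regions.

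Width, centred on the library median, was called narrower at 1 of 64 regions, or 1.56%, against 0.61% of all regions. It was called wider at 2, or 3.12%, against 3.75%, which makes 4.69% in either direction, against 4.36%. Without centring 1 was narrower and none wider, and over all regions the calls were 360 narrower and 4 wider, against 415 and 2554 with centring.

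Covered length summed the accessible DNA of each gene window, scaled to the total covered length of the library and compared by limma as log2(bp + 200) over 19690 genes. None of the 9 genes was lower, against a background of 2.67% of genes, and 1 was higher, NUPR1, against 2.88%, or 5.55% of genes in either direction. The median difference of the 9 was -0.12, and that of all genes tested was -0.04. Without scaling 5 of the 9 were lower and 1 higher, while over all genes 4136 were lower and 458 higher, against 525 and 567 with scaling, and the median of all genes moved to -0.16. PPP1R15A, at 0.11 with scaling, was -0.02 without it.

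NUPR1 had a scaled covered length of 4192, 4749 and 4743 bp in knockdown libraries, against 3221, 3130 and 3659 bp in control libraries. Every knockdown library was above every control library, with means of 4561 ± 320 bp and 3337 ± 283 bp (SD, n = 3 each). The difference was 0.43 ± 0.11 (SE; limma adjusted p = 0.0377). It lost the call with windows of 10 kb (adjusted p = 0.128) and 100 kb (adjusted p = 0.219), and without any single library other than knockdown replicate 1 (adjusted p of 0.0713 to 0.124). Over its 16 alternatives the adjusted p ran from 0.0217 to 0.219. Of the 14 regions of this window, 4 were listed in all 6 libraries. Another 6 were found in 1 library only, or 42.9%, against 44.8% of all regions. The window held 9, 10 and 12 merged peaks in knockdown libraries, against 6, 6 and 8 in control libraries. The whole lists also held more merged peaks in every knockdown library. They numbered 170210, 171685 and 163937 in knockdown libraries, against 150004, 161433 and 135070 in control libraries. Listed peaks covered a mean of 845 bp of the SGF29 region in the knockdown, against 921 bp in the control, without scaling. Which peaks made up the difference was not tested. The genes whose pattern over the 6 libraries was most like that of NUPR1 were ZDHHC19, GNRHR and NOG, at Euclidean distances of 0.0469, 0.0853 and 0.128 between centred log2 values.

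The other 8 genes ranged from -0.25 in STC2 (limma adjusted p = 0.150) to 0.11 in PPP1R15A (limma adjusted p = 0.543). STC2 had 4590, 4458 and 3887 bp in knockdown libraries, against 5287, 5207 and 5014 bp in control libraries, with no overlap. TRIB3 had 11956, 11682 and 11942 bp in knockdown libraries, against 13679, 11698 and 14205 bp in control libraries, with control replicate 2 between the knockdown values. KLHL24 had 4056, 5104 and 5466 bp in knockdown libraries, against 5836, 5402 and 5781 bp in control libraries, and its groups overlapped. Summed over the 9 windows without scaling, listed peaks covered 57635, 57370 and 60051 bp in knockdown libraries, against 68828, 63850 and 69581 bp in control libraries. The exact permutation p was 0.1, the smallest that 3 against 3 allows. The whole lists also covered less in every knockdown library, 63.6, 63.0 and 63.9 Mb, against 70.7, 70.3 and 67.0 Mb in control libraries. The number of peaks was 104, 106 and 112 in knockdown libraries and 110, 109 and 103 in control libraries (exact permutation p = 1). In the whole lists the number of merged peaks was higher in every knockdown library, as given above.

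**Figure D4:**
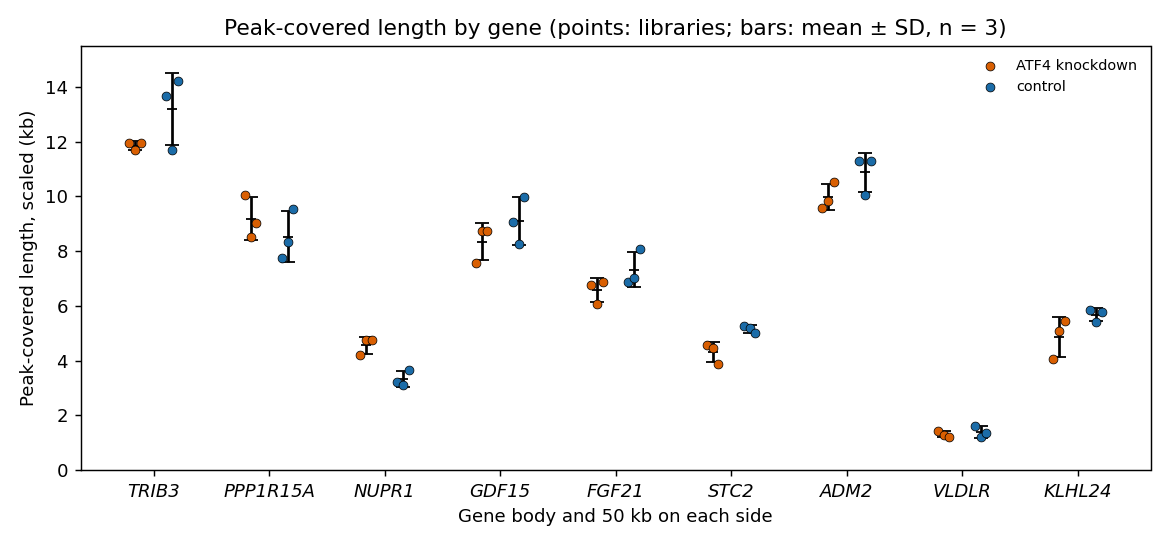
Peak-covered length in kb, scaled to the library total (vertical axis), in the body and 50 kb on each side of each gene (horizontal axis), with the 3 knockdown libraries (orange) left of the 3 control libraries (blue) and bars for mean ± SD (n = 3 each). NUPR1 is the gene past the threshold, at 4192 to 4749 bp in knockdown libraries and 3130 to 3659 bp in control libraries.

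Among 32 other ATF4 targets, on the same covered length, 2 were lower and 0 higher, with a median of -0.10. This list and those below were chosen with earlier results of these data known, so their counts describe the lists and are not independent tests. Over all genes tested 2.67% were lower and 2.88% higher, with a median of -0.04. JDP2, a bZIP repressor of AP-1 sites, had 4391, 3918 and 3562 bp in knockdown libraries, against 5290, 5758 and 5977 bp in control libraries, a fall of every knockdown library (-0.50, limma adjusted p = 0.0175). SLC7A5, the leucine transporter LAT1, had 10108, 10514 and 9975 bp in knockdown libraries, against 12491, 11866 and 11994 bp in control libraries (-0.24, limma adjusted p = 0.0477). Whether the calls of JDP2 and SLC7A5 hold under the alternatives was not examined. PHGDH, the first enzyme of serine synthesis, was not called (-0.50, limma adjusted p = 0.0652). None of 10 genes of integrated stress response signalling was called, with a median of -0.09. The smallest p among these belonged to EIF2S1, the phosphorylated subunit of eIF2 (-0.35, limma adjusted p = 0.0979), ATF4 (-0.21, limma adjusted p = 0.121) and DELE1, which relays mitochondrial stress (-0.22, limma adjusted p = 0.137). None of 18 paralogs and receptors of the 9 genes was called, with a median of -0.07. Lowest in p there were FGFR1 (0.31, limma adjusted p = 0.0623), TRIB1 (-0.46, limma adjusted p = 0.0623) and STC1 (0.61, limma adjusted p = 0.283). At an unadjusted p under 0.05 there were 2 of the 9 stress outputs, 9 of the 32 other ATF4 targets, 4 of these 10 genes and 2 of these 18, against 4380 of the 19690 genes tested. Of the 32 other ATF4 targets, 24 had a sequence. TGATGNAA lay in the 250 bases before the start of 7, or 29.2%, against 3.16% of all genes with a sequence. The 7 were ASNS, ATF3, CEBPG, CHAC1, GARS1, HERPUD1 and JDP2, so of the 2 called targets JDP2 was among them and SLC7A5 was not. TGACGTCA lay there in 0 of the 24 and TGANTCA in 3. In the other lists TGATGNAA lay before 1 of 9 signalling genes and 1 of 10 paralogs and receptors with a sequence, TGACGTCA before none, and TGANTCA before 1 of the 9 and none of the 10.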

How the data were processed

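ATAC-seq peak lists of 6 KMS-11 libraries were used, 1 list per library. The submitters' processing notes name MACS2 as the peak caller and hg38 as the build. Caller version and settings, aligner, read filters and any Tn5 shift are not given in the sources used. In the deposited files, fold is the ratio of (summit pileup + 1) to (local background + 1). The deposited −log10 p and −log10 q are the caller's own values per library, and the deposited score repeats −log10 p in a capped form. Read depth is not in the lists, so summit pileup and local background were recovered from fold and −log10 p by the Poisson tail (tolerance 0.01 on the −log10 scale; 100% of summits), and the most common local background stood for depth.

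Regions were peaks with −log10 q of at least 2 merged over libraries (1 bp overlap). Presence needed −log10 q of at least 2, and absence no listed peak. Gene positions came from RefSeq (GRCh38.p14), strands from its promoter table (15813 of 19974 genes), and NUPR1 was measured from its nearer end. Exons and introns were not told apart. Tests used limma 3.58.1 (trend, robust) in R 4.3.3, threshold 0.05, and sums used exact two-sided permutation. The limma step was run on simulated data whose shifts were larger than almost all differences called here. That run cannot show how well smaller differences are found. Covered length used every listed peak, and genes with coverage in fewer than 3 libraries were left out.

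Named regions were those over or nearest a start, with the highest median −log10 q of a window, found in 1 group only, or past a threshold. The named genes of each of the 3 lists had the 3 smallest p. The members and lists were chosen with earlier results of these data known. Alternatives changed scaling, the added constant (50 or 1000 bp), the −log10 q threshold (2 or 5 for covered length and window sums, 5 for merging regions, none, 5 or 10 for presence), windows (10 or 100 kb), overlap, list length, the region measure, centring, the replicate block and the libraries kept.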

Additional observations from a re-analysis of the deposited data

How the results depend on the processing

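Each of the 7 rank calls kept its direction under all 10 alternatives run for it. The rises near NUPR1 and over LMF2 and the fall 8.27 kb upstream of TRIB3 also kept their call. Regions past the rank threshold numbered 9286 on log2 fold and 11845 on log2 pileup over background, against 5564 by rank, with 13 of them near the 9 genes on pileup, against 7; leaving out 1 library gave 2097 to 5489 in all and 5 to 9 near the genes. Over all regions, 2420 were lower and 6866 higher on log2 fold, and 3813 lower and 8032 higher on pileup, both relative to the library median. Differences not past the rank threshold turned sign on centred log2 fold at the starts of TRIB3 (0.38), STC2 (0.0536) and ADM2 (0.12). Before centring, fold at the TRIB3 start was 8.73, 8.09 and 8.32 in knockdown libraries, against 8.41, 9.10 and 9.45 in control libraries. Rank differences without single libraries ranged between -0.14 and 0.00246, -0.18 and 0.10, and -0.0262 and 0.126 at the starts of TRIB3, ADM2 and VLDLR.

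Genes past the covered-length threshold numbered 4594 without scaling, 343 at −log10 q of at least 2, 4513 at 5 (905 lower and 3608 higher), 249 and 2075 with windows of 10 and 100 kb, and 454 with lists of equal length, against 1092, and 281 to 1128 without 1 library. The 9 genes gave 6, 2, 0 and 0 calls without scaling, at 5 and with 10 and 100 kb, against 1, and 0 to 1 without 1 library. At 5 the sign turned for TRIB3 (0.0750), GDF15 (0.0381), FGF21 (0.11), ADM2 (0.20, adjusted p = 0.0286), VLDLR (0.27) and KLHL24 (0.0163), and at 2 for ADM2 (0.0458). PPP1R15A turned to -0.0178 without scaling, -0.0414 at 10 kb and -0.0248 at 100 kb, and VLDLR to 0.0634 with equal lists and ranged between -0.155 and 0.0352 without 1 library.

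Width calls numbered 364 without centring, against 2969, with 1 near the 9 genes, against 3, and without centring the sign turned for the regions in RBCK1 (-0.0569) and in PPP1R15A (-0.0190). Leaving out 1 library gave 0 to 3096 in all and 0 to 5 near the genes. Control-only regions numbered 1211 and 316 at −log10 q of at least 5 and 10, 6498 with an overlap of at least 50% of the region, and 5360 with equal lists, against 3247, and 4575 to 5904 without 1 library. Near the 9 genes there were 5 with any listed peak, 6 with the 50% overlap and 6 with equal lists, against 3, and 3 to 5 without 1 library. Knockdown-only regions numbered 1335 with any listed peak, 9 and 1 at 5 and 10, and 701 with equal lists, against 221, and 332 to 1133 without 1 library; near the 9 genes 0 to 1. The peak count of the 9 windows differed by -7.67 at −log10 q of at least 2 and by -17.0 at 5, against 0, and by -2.33 to 1.67 without 1 library. Covered bp differed by -9068, and by -10853 to -7987 without 1 library. The cause of these shifts was not tested.

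Samples with the same replicate number correlated at 0.036 to 0.059 in covered length and 0.002 to 0.041 in rank, so the numbers were not taken as pairs, although in covered length every sample correlated best with its own number. With the replicate block, 1304 genes passed (1 of the 9), 5884 regions by rank (8 near the 9 genes), and 0 by width in all and 0 near the 9 genes. Each list carries peaks and no reads, so a weak site missed at the lower knockdown depth cannot be told from a closed one.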
